A study of Mus musculus with 39 samples.

Results

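Brown fat burns fuel for heat mainly through uncoupling protein 1 (UCP1), but the cells hold other genes that feed, tune or accompany that process. The 8 genes described here are Dio2, Otop1, Kcnk3, Letmd1, Ucp2, Ucp3, Cidea and Fabp3. They were chosen by name as brown fat thermogenic effectors besides Ucp1, with earlier results of these data known. All 8 were found among the 24116 gene entries of the deposited table of normalised counts, and all 8 were among the 13176 genes with a mean of at least 10 that were tested. The 16 RNA libraries came from interscapular brown adipose tissue of male C57BL/6J mice carrying a floxed BCL6 gene, 4 libraries in each of 4 groups. The groups were Cre-labelled (UCP1Cre+, with Cre under the Ucp1 promoter) at 30 °C, Cre-negative control at 30 °C, Cre-labelled at 22 °C and control at 22 °C. Both labels carry the floxed allele, all mice ate standard chow at a constant temperature, and no group with Cre but without the floxed allele is among the libraries. Age is not given, and nothing says that the 4 libraries of a group come from separate mice, so the p-values measure the spread between libraries, which may be technical. A temperature of 30 °C is near thermoneutrality for a mouse, while 22 °C is a mild cold load.

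When a mouse is cooled, noradrenaline from sympathetic nerves raises cAMP in brown adipocytes, which drives lipolysis and the transcription of thermogenic genes. Dio2 encodes the type II deiodinase, which makes active thyroid hormone from thyroxine inside the cell. Otop1 encodes a proton channel and Kcnk3 the tandem-pore potassium channel TASK-1, so both bear on ion flow across the cell membrane. Letmd1 encodes a mitochondrial protein needed for brown fat thermogenesis in mice. Ucp2 and Ucp3 encode mitochondrial carriers related to UCP1. Cidea encodes a lipid droplet protein, and Fabp3 a cytosolic carrier of fatty acids best known from heart and muscle. BCL6 is a transcriptional repressor.

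The sequences just before the transcription start are shown for 3 members: Dio2, which differed most between temperatures, and Ucp3 and Ucp2, neighbours on chromosome 7 that went opposite ways. They are RefSeq promoters on GRCm38.p6, printed 5′ to 3′ on the gene's own strand, with motif matches in capitals. Dio2 lies on chr12:90739039-90739288 (minus strand), Ucp3 on chr7:100472741-100472990 (plus strand) and Ucp2 on chr7:100493108-100493336 (plus strand), printed as far as the annotated gene begins.
Dio2: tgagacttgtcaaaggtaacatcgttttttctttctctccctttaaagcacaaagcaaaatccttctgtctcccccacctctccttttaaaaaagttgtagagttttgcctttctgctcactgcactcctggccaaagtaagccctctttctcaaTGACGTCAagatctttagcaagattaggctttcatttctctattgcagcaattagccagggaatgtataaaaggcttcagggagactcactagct
Ucp3: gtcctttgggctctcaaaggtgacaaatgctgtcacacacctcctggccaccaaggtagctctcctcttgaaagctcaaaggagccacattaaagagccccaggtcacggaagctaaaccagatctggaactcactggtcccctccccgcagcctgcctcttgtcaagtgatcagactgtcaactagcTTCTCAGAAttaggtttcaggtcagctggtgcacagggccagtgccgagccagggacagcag
Ucp2: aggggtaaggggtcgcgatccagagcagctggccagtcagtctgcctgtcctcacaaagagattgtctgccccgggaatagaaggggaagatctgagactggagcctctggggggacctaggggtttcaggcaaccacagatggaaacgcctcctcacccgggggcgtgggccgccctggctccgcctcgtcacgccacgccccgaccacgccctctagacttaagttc

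In the 250 bases before the start, searched on both strands, the cAMP response element TGACGTCA was found in Dio2 alone of the 6 members with a RefSeq promoter (Dio2, Otop1, Letmd1, Fabp3, Ucp2 and Ucp3), beginning 95 bases before the start. Of all 32851 promoters searched, 1.55% held it. The palindrome TTCNNNGAA, the core shared by STAT and BCL6 type sites, was found in Ucp3 alone, as TTCTCAGAA 62 bases before the start, and in 7.02% of all promoters. The stricter BCL6 type letters TTCCTNGAA, a subset of that palindrome, were in 0 of the 6 and in 1.31% of all. The ERR type letters AAGGTCA were in 0 of the 6 and in 4.08% of all. A match is a description of letters and not of a bound site.

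Normalised counts summed to between 10122739 and 13516936 per library at 22 °C and between 8867615 and 9975035 at 30 °C. The totals thus did not overlap between temperatures. Per library, 14311 to 16849 genes were above 0. The raw depth is unknown, since the deposited values are normalised and not whole. Bcl6 RNA was 3269, 4451, 5159 and 4985 normalised counts in Cre-labelled libraries at 30 °C, against 2340, 2266, 1763 and 1020 in controls. The libraries labelled Cre-positive thus held more Bcl6 RNA than controls (log2 difference 1.32, SE 0.27, limma adjusted p = 0.00438), and also at 22 °C (1.70, adjusted p = 0.000825). The sources used here do not give which part of the gene is floxed, so gene counts do not check the deletion, and every direction below is a direction between labels.

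At 30 °C, 5 of the 8 members were lower in Cre-labelled libraries and 0 were higher. Among all 13176 genes tested, 6.85% were lower and 5.65% higher by the same limma test. The 5 were Otop1, Kcnk3, Letmd1, Cidea and Fabp3, and in each of them the 4 Cre-labelled libraries lay below all 4 controls. The median log2 difference over the 8 members was -0.66, against 0.01 over all genes. Dio2, Ucp2 and Ucp3 did not pass, though at an unadjusted limma p under 0.05 Dio2 and Ucp3 would count as higher. In either direction, 3393 of all 13176 genes had such an unadjusted p. With 4 libraries against 4, a two-sided exact permutation test of 1 gene cannot go below p = 0.0286, which each of the 5 reached. How many of all genes tested lie fully apart between labels was not counted, so these separations have no background beside them. In bulk tissue, fewer brown adipocytes and less RNA per adipocyte cannot be told apart. Of 9 general adipocyte markers 0 were higher and 1 was lower, with a median difference of 0.00.

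**Figure D1:**
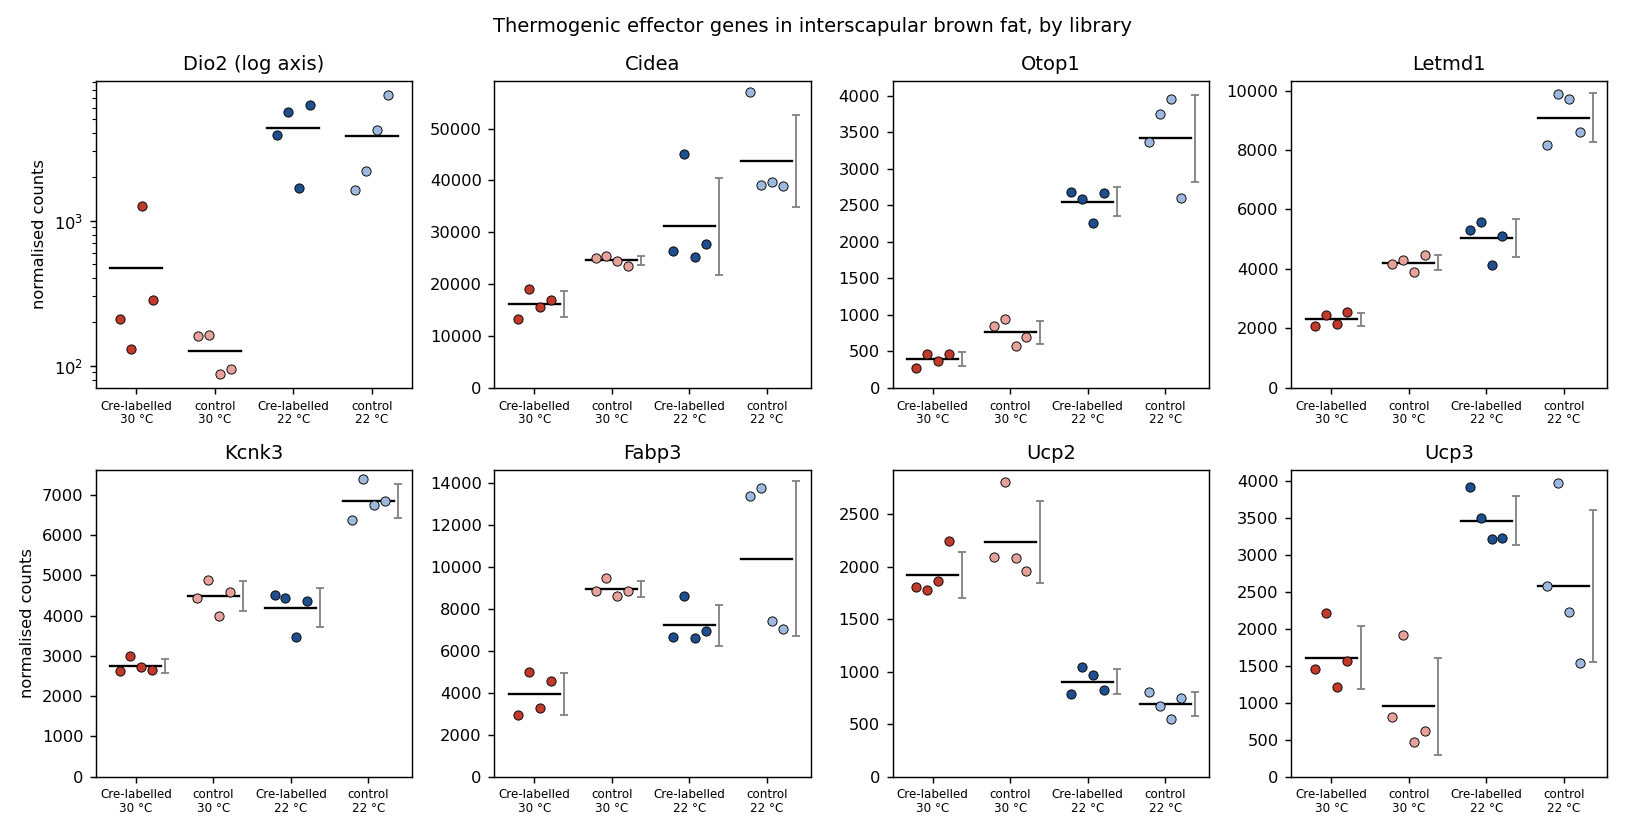
Normalised counts of each member (vertical axes, linear from 0 except Dio2, which is on a log axis) in the 4 groups. Each point is a library, the black line is the group mean and the grey bar 1 SD (n = 4, not drawn for Dio2). For Letmd1 and Kcnk3 the Cre-labelled libraries lie below the controls at both temperatures, and for Ucp2 the 30 °C libraries lie above the 22 °C ones.

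Letmd1 held 2068, 2451, 2159 and 2544 normalised counts in Cre-labelled libraries at 30 °C, and 4162, 4315, 3902 and 4472 in controls. The highest Cre-labelled library stayed well under the lowest control. The difference was 1.83-fold lower by the means (log2 -0.87, SE 0.11, adjusted p = 7.72e-05). Letmd1 overlaps the annotated lncRNA 5330439K02Rik, and the strand setting of the counting is unstated, so reads from the 5947 shared bases may not be separable. Shorter stretches are shared by Cidea with B430212C06Rik (540 bases), Kcnk3 with Gm9899 (450 bases) and Fabp3 with Zcchc17 (81 bases).

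The ion channel genes followed. Otop1 read 276, 471, 367 and 470 in Cre-labelled libraries and 841, 938, 574 and 695 in controls. It was 1.92-fold lower (log2 -0.95, SE 0.18, adjusted p = 0.00235). Kcnk3 was 2627, 3006, 2713 and 2644 in Cre-labelled libraries, while controls had 4440, 4882, 3992 and 4590. The Cre-labelled libraries were tightly grouped, and Kcnk3 was 1.63-fold lower (log2 -0.70, SE 0.10, adjusted p = 0.000303). Kcnk2, a potassium channel gene of the same family, was lower as well, at 4.99 against 23.3 on average, both low levels (log2 -2.10, adjusted p = 0.000769).

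Both lipid-handling members fell. Fabp3 had 2961, 4996, 3255 and 4574 normalised counts in Cre-labelled libraries and 8862, 9501, 8627 and 8876 in controls. Its controls were within a narrow band and its Cre-labelled libraries more spread. The fall was 2.27-fold (log2 -1.22, SE 0.21, adjusted p = 0.00128), the largest among the 5. Fabp5, another fatty acid carrier gene, was higher (log2 0.91, adjusted p = 0.0167), while the abundant Fabp4 did not pass (0.38, adjusted p = 0.254). Cidea read 13232, 19164, 15593 and 16917 in Cre-labelled libraries, against 24978, 25512, 24484 and 23429 in controls. That was 1.52-fold lower (log2 -0.61, SE 0.19, adjusted p = 0.0394). The Cidea call was the least firm: leaving out any single library of the 2 groups other than Cre-labelled library 2 left it short of the threshold, with adjusted p between 0.0716 and 0.127, and so did testing without the filter on low genes (0.0941).

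Dio2 and the UCP1 relatives behaved otherwise. Dio2 was 208, 131, 1253 and 284 in Cre-labelled libraries at 30 °C and 160, 163, 88 and 95 in controls. Cre-labelled library 3 stood far above the rest, and library 2 lay among the controls. The log2 difference of 1.36 (SE 0.59, 95% interval 0.11 to 2.61) did not pass (adjusted p = 0.154), and without library 3 it was 0.70 (adjusted p = 0.441). Ucp3 read 1448, 2207, 1216 and 1557 in Cre-labelled libraries and 807, 1912, 464 and 622 in controls. All controls but library 2 lay below every Cre-labelled library. The log2 difference of 0.94 (SE 0.34) did not pass (adjusted p = 0.0815) but did without control library 2 (1.35, adjusted p = 0.00396). Ucp2 was 1811, 1773, 1862 and 2241 in Cre-labelled libraries, against 2091, 2810, 2086 and 1957 in controls, and the groups overlapped (log2 -0.21, 95% interval -0.51 to 0.09, adjusted p = 0.384). Ucp1 itself was 3.11-fold lower (log2 -1.68, adjusted p = 0.000280).

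At 22 °C, 2 of the 8 members were lower in Cre-labelled libraries by limma, Letmd1 and Kcnk3, and 0 were higher. At an unadjusted limma p under 0.05 there were 6. Beside Letmd1 and Kcnk3, these were Cidea, Otop1 and Fabp3, lower, and Ucp2, higher. Over all genes tested, 4.69% were lower and 5.51% higher, and 3355 of the 13176 had an unadjusted p under 0.05 in either direction. Letmd1 had 5313, 5596, 4148 and 5093 normalised counts in Cre-labelled libraries and 8180, 9885, 9712 and 8592 in controls. It was 1.80-fold lower (log2 -0.86, SE 0.11, adjusted p = 0.000115), and no library of one label reached into the range of the other. Kcnk3 read 4521, 4441, 3469 and 4369 in Cre-labelled libraries, while controls read 6368, 7382, 6754 and 6849. The groups were again apart, by 1.63-fold (log2 -0.71, SE 0.10, adjusted p = 0.000349).

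The other 6 members overlapped between labels at 22 °C and did not pass. Cidea was 26332, 45124, 25255 and 27791 in Cre-labelled libraries and 56986, 39200, 39649 and 38903 in controls. In Cre-labelled library 2 it reached above 3 of the controls; the log2 difference of -0.51 (adjusted p = 0.0907) passed without that library (-0.70, adjusted p = 0.00680). Otop1 read 2688, 2582, 2257 and 2665 in Cre-labelled libraries, against 3373, 3755, 3952 and 2599 in controls. A single control lay within the Cre-labelled range, and the log2 difference was -0.41 (SE 0.18, adjusted p = 0.164). Fabp3 was 6653, 8639, 6635 and 6937 in Cre-labelled libraries and 13400, 13797, 7433 and 7030 in controls. The controls split into a high and a low pair, and the log2 difference was -0.47 (adjusted p = 0.183). Ucp2 read 785, 1044, 968 and 825 in Cre-labelled libraries and 804, 668, 548 and 752 in controls (log2 0.39, 95% interval 0.09 to 0.69, adjusted p = 0.0896). Dio2 spread widely in both labels, from 1693 to 6268 in Cre-labelled libraries and from 1632 to 7357 in controls (log2 0.26, 95% interval -0.99 to 1.51, adjusted p = 0.823). Ucp3 lay between 3210 and 3910 in Cre-labelled libraries and between 1534 and 3964 in controls (log2 0.51, adjusted p = 0.379).

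**Figure D2:**
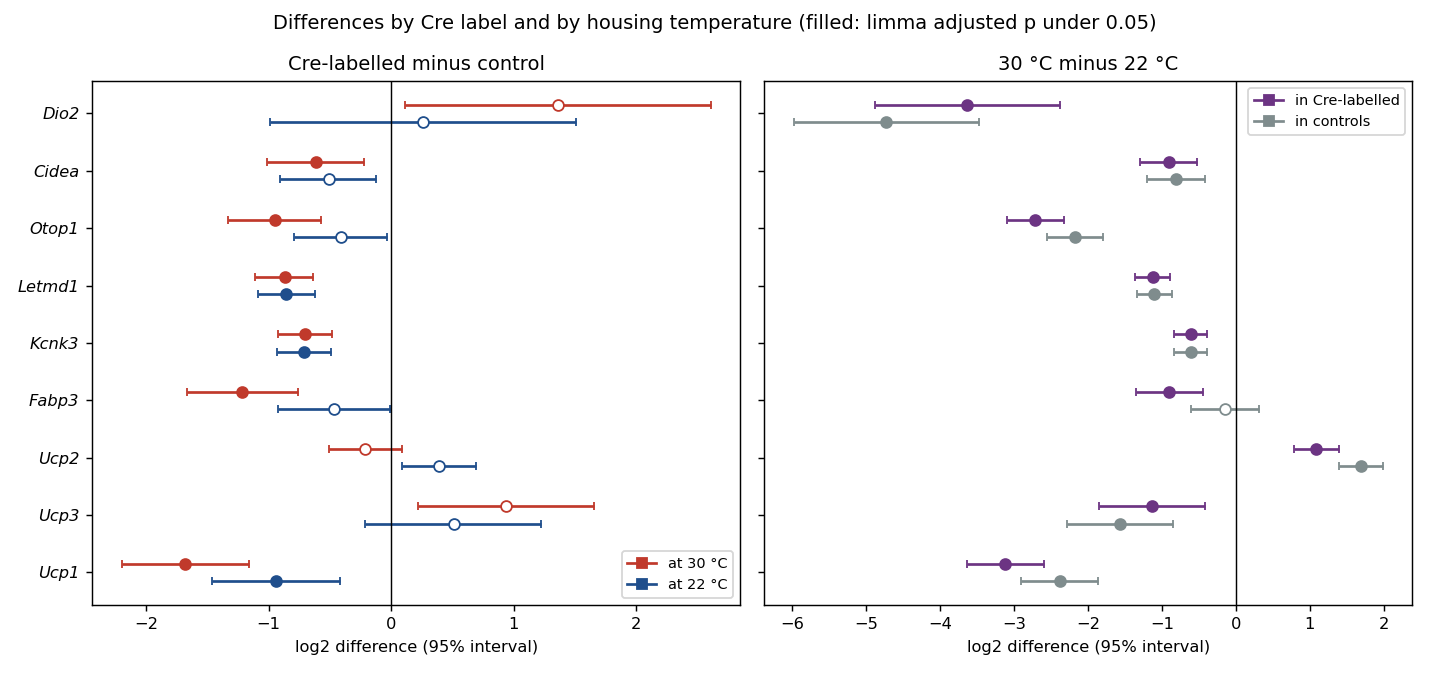
Log2 differences with 95% intervals for the 8 members and Ucp1 (horizontal axes), Cre-labelled minus control at each temperature on the left and 30 °C minus 22 °C within each label on the right. Filled points passed limma at an adjusted p under 0.05. Letmd1 and Kcnk3 sit at nearly the same place in both colours of each panel, and Ucp2 alone lies to the right of 0 on the right.

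Whether the label difference itself changed with temperature was tested as an interaction in limma. None of the 8 members passed, and 0.440% of all genes did. At an unadjusted limma p under 0.05 there were 3 members, beside 1387 of all 13176 genes. For Letmd1 the label difference at 30 °C minus that at 22 °C was -0.02 (95% interval -0.35 to 0.32) and for Kcnk3 it was 0.01 (-0.30 to 0.32). Beside the label differences at 30 °C of -0.87 and -0.70, these intervals are too wide to show equal label differences at both temperatures. Under quantile normalisation the Letmd1 label difference was -0.86 at 30 °C and -0.60 at 22 °C. For Kcnk3 it was then -0.67 at 30 °C and -0.48 at 22 °C. The 3 with an unadjusted p under 0.05 were Fabp3 (-0.75, interval -1.39 to -0.11, adjusted p = 0.377), Ucp2 (-0.60, interval -1.02 to -0.18, adjusted p = 0.268) and Otop1 (-0.54, interval -1.08 to 0.00, adjusted p = 0.474). So the passing of Otop1, Cidea and Fabp3 at 30 °C and not at 22 °C is not shown to be a difference between temperatures.

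Most members differed between housing temperatures. In Cre-labelled libraries 7 members were lower and 1 was higher at 30 °C than at 22 °C, where 17.7% of all genes were lower and 15.0% higher. In controls 6 were lower and 1 higher, beside 22.7% and 22.9% of all genes. The 2 comparisons share no library. Dio2 was 9.31-fold lower at 30 °C in Cre-labelled libraries (log2 -3.63, SE 0.59, adjusted p = 0.000269) and 30.5-fold lower in controls (-4.73, SE 0.59, adjusted p = 1.65e-05). The highest Dio2 value at 30 °C, 1253, was still under the lowest at 22 °C, 1632. Dio2 shares 939 annotated bases with the lncRNA Gm26512, where reads may not be separable. Otop1 was lower by 6.43-fold in Cre-labelled libraries (log2 -2.71, adjusted p = 1.25e-07) and by 4.49-fold in controls (-2.17, adjusted p = 4.33e-07), with temperatures fully apart.

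Letmd1 was 2.19-fold lower at 30 °C in Cre-labelled libraries (log2 -1.12, adjusted p = 5.38e-06) and 2.16-fold lower in controls (-1.11, adjusted p = 2.18e-06). Kcnk3 fell by 1.53-fold under both labels (log2 -0.61 each, adjusted p = 0.000392 in Cre-labelled libraries and 0.000223 in controls). Cidea was 1.92-fold lower in Cre-labelled libraries (-0.91, adjusted p = 0.00145) and 1.78-fold lower in controls (-0.81, adjusted p = 0.00234). Under quantile normalisation the control differences shrank to -0.12 for Cidea (adjusted p = 0.469) and -0.17 for Kcnk3 (adjusted p = 0.201), so these calls hang on the scaling. Fabp3 fell in Cre-labelled libraries (-0.90, adjusted p = 0.00424) and did not pass in controls (-0.15, 95% interval -0.60 to 0.31, adjusted p = 0.598).

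Ucp2 and Ucp3 lie next to each other on chromosome 7, in the same orientation, with 6904 bases between the end of Ucp3 and the start of Ucp2. At 30 °C Ucp2 was 2.12-fold higher than at 22 °C in Cre-labelled libraries (log2 1.09, adjusted p = 4.45e-05) and 3.23-fold higher in controls (1.69, adjusted p = 4.51e-07). Every 30 °C library exceeded every 22 °C library. Ucp3 was 2.15-fold lower in Cre-labelled libraries (-1.14, adjusted p = 0.0165), with temperatures apart, and 2.70-fold lower in controls (-1.57, adjusted p = 0.00149), where control library 2 at 30 °C, at 1912, lay above the lowest 22 °C control, 1534. Without Cre-labelled library 3 at 30 °C the Ucp3 call in Cre-labelled libraries was lost (-1.01).

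The order of the 4 groups was the same for Otop1, Letmd1 and Cidea: lowest in Cre-labelled libraries at 30 °C, then control at 30 °C, Cre-labelled at 22 °C and control at 22 °C. For Otop1 the labels overlapped at 22 °C. For Letmd1 the 2 middle groups overlapped, and for Cidea so did each neighbouring pair except the lowest. As a share of the 22 °C control mean, the Cre-labelled libraries at 30 °C held 11.6% of Otop1, 12.1% of Dio2, 25.4% of Letmd1, 37.1% of Cidea, 37.9% of Fabp3, 40.2% of Kcnk3 and 62.4% of Ucp3, but 277% of Ucp2. Over the 16 libraries the log2 SD was widest for Dio2, 2.39, and narrowest for Kcnk3, 0.49.

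Among 36 other thermogenic genes, 34 were tested. At 30 °C, 16 of them were lower and 1 was higher in Cre-labelled libraries (median log2 difference -0.55). Pank1, which makes the precursor of coenzyme A, averaged 2478 normalised counts in Cre-labelled libraries and 6724 in controls (log2 -1.45, adjusted p = 1.57e-06). The mitochondrial acylcarnitine carrier Slc25a20 (-0.99, adjusted p = 4.58e-05), the secreted enzyme Pm20d1 (-1.72, adjusted p = 7.45e-05) and Slc27a2, which imports fatty acids, (-1.41, adjusted p = 0.000211) came next in order of adjusted p. The 1 higher gene was the transcription factor Irf4 (2.25, adjusted p = 0.0264). At 22 °C, 13 were lower and 1 higher (median -0.35), led by S100b (-1.53, adjusted p = 3.46e-05) and Elovl3, a fatty acid elongase, which averaged 53.9 in Cre-labelled libraries and 937 in controls (log2 -3.90, adjusted p = 0.000234). Of 20 family relatives of the members, 11 were tested, and at 22 °C Cideb was higher (0.70, adjusted p = 0.00342) and Kcnk2 lower (-1.65, adjusted p = 0.00590).

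Other cell types in the tissue moved with the groups, and beyond the covariates given here their part in the members' differences was not tested. Summed over 19 macrophage markers, normalised counts ran from 7628 to 21245 in Cre-labelled libraries and from 4467 to 5654 in controls at 30 °C, and from 2652 to 3721 in Cre-labelled libraries and from 1563 to 2575 in controls at 22 °C. Of the 19 genes, 15 were higher in Cre-labelled libraries at 30 °C, while 9 were higher and 1 lower at 22 °C. Between temperatures 18 were higher at 30 °C in Cre-labelled libraries and 17 in controls, with no defining marker (Adgre1, Cd68, Csf1r, Mpeg1) at 0 in any library. Ucp2, also expressed by macrophages, was higher at 30 °C than at 22 °C under both labels. By label its log2 difference was -0.21 at 30 °C (limma adjusted p = 0.384) and 0.39 at 22 °C (adjusted p = 0.0896). With the macrophage score as a covariate, which follows the groups, the Ucp2 temperature difference was 0.62 in Cre-labelled libraries (SE 0.37, adjusted p = 0.308) and 1.32 in controls (SE 0.31, adjusted p = 0.0196). By label at 30 °C, Letmd1 still passed with it (log2 -0.90, SE 0.21, adjusted p = 0.0390). Fabp3 (-1.48, SE 0.40), Cidea (-0.96, SE 0.34), Otop1 (-0.84, SE 0.34) and Kcnk3 (-0.64, SE 0.20) did not, with adjusted p between 0.0692 and 0.211. Their differences were of similar or larger size than without the covariate, and the standard errors were larger.

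Some markers of 3 further kinds of cell were higher in Cre-labelled libraries. Over all genes tested, 5.65% were higher by label at 30 °C and 5.51% at 22 °C. Summed over the white adipocyte list, normalised counts ran from 13352 to 20895 in Cre-labelled libraries and from 3283 to 4605 in controls at 30 °C, and from 1835 to 3228 in Cre-labelled libraries and from 641 to 1066 in controls at 22 °C. Of its 7 genes tested, 2 were higher and 1 lower by label at each temperature, and at 30 °C 5 differences were positive and 2 negative. Most of the Cre-labelled sum at 30 °C was Nnat, which averaged 13655 in Cre-labelled libraries and 1813 in controls. Hoxc8 went the other way at 30 °C (16.3 against 30.9 on average), and Agt was nearly level (31.1 against 32.4). Of 10 endothelial markers 4 were higher at each temperature, with sums of 26996 to 33463 in Cre-labelled libraries and 21780 to 27079 in controls at 30 °C. Of 11 lymphocyte markers tested, 1 was higher at 30 °C and 3 at 22 °C, with sums of 265 to 398 in Cre-labelled libraries and 193 to 274 in controls at 30 °C. The lymphocyte count at 30 °C, 1 of 11, lies near the share over all genes.

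Skeletal muscle transcripts varied from library to library. The sum over 24 muscle markers ran from 1239 to 38548 in Cre-labelled libraries and from 13817 to 23773 in controls at 30 °C, and from 1803 to 45015 in Cre-labelled libraries and from 1785 to 6756 in controls at 22 °C. By label, 1 of the 24 was lower in Cre-labelled libraries at 30 °C and 1 was higher at 22 °C. Between temperatures, 0 passed in Cre-labelled libraries and 13 were higher at 30 °C in controls, and the defining marker Myh4 was at 0 in 1 Cre-labelled library at 30 °C. Fabp3 and Ucp3 are muscle genes too. With the muscle score as a covariate the label difference at 30 °C was -1.25 for Fabp3 (adjusted p = 0.00165) and 0.93 for Ucp3 (adjusted p = 0.102). The temperature difference of Ucp3 in controls was then -1.56 (adjusted p = 0.00733). These are close to the values without it.

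**Figure D3:**
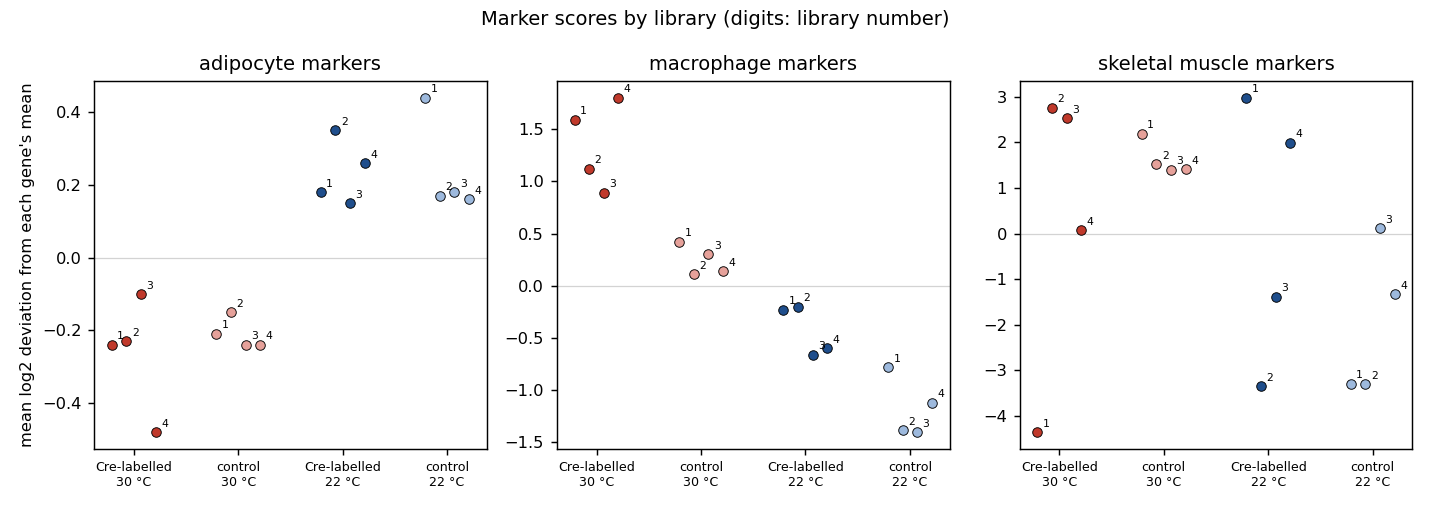
Scores of adipocyte, macrophage and skeletal muscle markers in each library (vertical axes, log2 values centred per gene over the 16 libraries and averaged over the list), with the library number beside each point. Macrophage scores fall from left to right across the 4 groups, while muscle scores spread within groups, from -4.35 to 2.76 in Cre-labelled libraries at 30 °C.

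The genes whose profile over the 16 libraries lay closest to each member were found among 9289 well-expressed genes, as the root mean square gap between centred log2 values. For Letmd1 they were Acadm (gap 0.13) and Hadha (0.14), both enzymes of fatty acid oxidation. Cidea was closest to Cycs (0.12), which encodes cytochrome c, and Eci1 (0.13). Kcnk3 lay nearest Galnt2 (0.10) and Amacr (0.12), Otop1 nearest Agpat2 (0.31) and Apmap (0.41), and Fabp3 nearest Ldhb (0.25) and Fam58b (0.25). Ucp2 was closest to Lasp1 (0.25) and the collagen gene Col3a1 (0.26), and Ucp3 to Acot2 (0.39) and Sesn2 (0.41). For Dio2 the closest were Mfsd2a (0.98) and Fasn (1.07), a fatty acid synthase gene. Gaps grow with a member's own spread, so they are not comparable between members.

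BCL6 binding was listed by the authors as 3022 peaks in Cre-negative brown fat at 30 °C, each assigned to its nearest gene. The samples hold 1 BCL6 ChIP library of that kind, so the list has no replicate. None of the 8 members was the nearest gene of a peak, while 14.2% of the 13176 genes tested were. The smallest distance from a member's annotated gene to a peak was 22.5 kb, for Kcnk3, and that peak was assigned to the promoter of Mir5625 with the authors' score of 4.29, near the lowest score listed, 4.11. For the others the distance was 83.3 kb for Ucp2, 96.5 kb for Ucp3 (the same peak, in an intron of Mrpl48), 138 kb for Cidea, 140 kb for Fabp3, 380 kb for Otop1, 599 kb for Letmd1 and 677 kb for Dio2. Of the 36 other thermogenic genes, 6 were the nearest gene of a peak: Acot11, Esrrg, Ppara, Ppargc1a, Ppargc1b and Slc36a2. Acot11 averaged 371 normalised counts in Cre-labelled libraries and 1274 in controls at 30 °C (log2 -1.76, adjusted p = 0.00121), and Slc36a2 averaged 4866 in Cre-labelled libraries and 7633 in controls (-0.67, adjusted p = 0.00206). Both were also lower at 22 °C (Acot11 -1.16, adjusted p = 0.0237, and Slc36a2 -0.42, adjusted p = 0.0414). The other 4 did not pass by label at either temperature, with log2 differences at 30 °C of -0.68 for Esrrg, -0.55 for Ppargc1b, -0.30 for Ppara and -0.13 for Ppargc1a.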

How the data were processed

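PolyA RNA of 16 brown fat libraries was measured per the labels' protocols with a stranded kit. The deposited values are a signal: the authors used kallisto on mm10 for counting and DESeq2 for normalisation, per the submitters' processing notes, so raw depth is unknown and a change in total RNA per group would not show. The authors' peak list, annotated with HOMER on mm10 per the file headers and aligned with Bowtie2 per the submitters' processing notes, gives a deposited score per peak and a deposited fraction, the focus ratio, which was not used. The sources used here give neither annotation version nor counting strand. All 16 sample columns were used. Date-like symbols (26) were turned back into gene names, and 14 entries lack a symbol.

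Tests ran on log2(value + 1), which understates changes of low genes, for genes with a mean of at least 10. All 16 libraries entered a group-means model in limma 3.58.1 (R 4.3.3; moderated with a mean trend, prior degrees of freedom 4.83, residual 12), with Benjamini-Hochberg adjustment across the 13176 genes at a threshold of 0.05. The code was tested on simulated data. Members and lists were chosen with earlier results of these data known. Named were all members, up to 4 genes per list with the smallest adjusted p in the label comparisons, and the 2 closest profiles per member; Fabp4, Irf4 and the thermogenic genes nearest a peak were named after their values were seen. Gene positions and promoters come from RefSeq on GRCm38.p6. The alternatives were another pseudocount, filter, scaling, moderation or covariate, a replicate block, fits to the 2 groups compared, and leaving out libraries. H3K27ac, ERRa and other ChIP samples were not analysed here.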

Additional observations from a re-analysis of the deposited data

Results flagged for a closer look

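In 6 of the 32 groups of 4 libraries (8 members in 4 groups), 1 library lay far from the other 3 by Dixon's test, where chance flags about 1 in 20. These were Dio2 in Cre-labelled library 3 at 30 °C (1253 normalised counts, high), Ucp2 in control library 2 at 30 °C (2810, high), Cidea in Cre-labelled library 2 at 22 °C (45124, high), Fabp3 in the same library (8639, high), Kcnk3 in Cre-labelled library 3 at 22 °C (3469, low) and Cidea in control library 1 at 22 °C (56986, high). Cre-labelled library 2 and control library 1 at 22 °C were also the 2 libraries with the fewest genes above 0, 15226 and 14311. The 32 groups reuse the same 16 libraries, and Dixon's test ran on values without logs. The rate of 1 in 20 is therefore only a rough guide here.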

How the results depend on the processing

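No called member difference changed direction under any alternative run. Of 1152 recomputed member values, 26 lost a call and 5 gained one. Of the 26, 15 came with the macrophage score as a covariate, where members passing as lower numbered 1 by label at 30 °C, 2 by temperature in controls and 1 by temperature in Cre-labelled libraries, with 0 higher there. The standard errors rose, and the lost differences shrank for some members and grew for others: by temperature in Cre-labelled libraries Dio2 was -2.17 (against -3.63) and Cidea -1.46 (against -0.91). All-gene counts with it were 117 higher and 147 lower (label, 30 °C), 278 and 184 (label, 22 °C), 705 and 884 (temperature, controls) and 15 and 14 (temperature, Cre-labelled). The cause was not tested.

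With the muscle score, 1 member (Ucp2, 0.47, adjusted p = 0.0476) passed as higher by label at 22 °C, and interaction calls were 11 higher and 18 lower, against 23 and 35. Interaction counts were 56 lower with pseudocount 10, 54 lower with quantile normalisation and 14 and 23 without trend. Quantile normalisation gave 453 higher by label at 22 °C. Fits to the 2 groups alone gave 1123 higher at 30 °C, and 276 higher and 249 lower at 22 °C. Without the 2 libraries with the fewest genes, label counts were 1329 and 1466 at 30 °C and 1147 and 1197 at 22 °C, and the interaction 82 and 98; Cidea then passed at 22 °C (-0.57, adjusted p = 0.00592).

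With the replicate block, 1 member passed as higher by label at 30 °C (Ucp3, 0.94, adjusted p = 0.0212), and the interaction had 5 higher and 19 lower. Over all genes tested, same-numbered libraries did not deviate together (correlations -0.48 to 0.17). For Ucp3 by label at 30 °C, though, the SE was 0.24 with the block and 0.34 without it. Correlations over all genes cannot settle whether the numbers mark a block that touches some genes.

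Leaving out 1 library each gave, by label, 452 to 982 genes higher and 559 to 1135 lower at 30 °C, and 404 to 1164 and 360 to 1192 at 22 °C. By temperature it gave 2476 to 3310 and 2606 to 3200 in controls, and 1500 to 2315 and 1832 to 2626 in Cre-labelled libraries. The interaction had 4 to 42 and 17 to 62. Members numbered 0 to 1 higher and 4 to 5 lower by label at 30 °C, 2 to 3 lower at 22 °C, and 6 to 7 lower by temperature in Cre-labelled libraries.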
